A study of Homo sapiens with 2 samples.

Results

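Cholesterol and fatty acid synthesis genes are described here in HEK293T cells that had recovered from heat shock. The set was named gene by gene, as 18 enzymes of sterol synthesis, 1 sterol carrier, 5 regulators of the SREBP transcription factors and 7 enzymes of fatty acid synthesis, 31 genes in all. By symbol, 30 of the 31 were matched among the 57736 genes of the tables. The exception was ACACA, which encodes the acetyl-CoA carboxylase that makes malonyl-CoA. No identifier was matched to it, so it has no expression value here and enters only the promoter windows.

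HEK293T cells descend from human embryonic kidney and express the large T antigen of SV40, and the labels call them wild type. By the labels, the cells, grown with 10% serum, were heated to 43 °C for 20 min, returned to 37 °C for 6 h and lysed. The paper's text gives a longer time at 43 °C. Poly(A)+ RNA was sequenced. There is 1 group of 2 libraries, replicate 1 and replicate 2, lysed separately, with 22529828 and 26890199 expected counts. Separate cultures are not stated, so the spread between the libraries may be partly technical. Unheated cells are not analysed here, so every level below is a level after recovery, and no change with heat was measured. Tests between the libraries compare these 2 libraries, not conditions.

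Animal cells build cholesterol from acetyl-CoA through mevalonate, farnesyl diphosphate, squalene and lanosterol, and they build fatty acids from the same acetyl-CoA. The genes of both pathways share a switch in the endoplasmic reticulum. When membrane sterol is low, the escort protein SCAP carries the SREBP precursors to the Golgi, where proteases release the active transcription factors. When sterol is high, the INSIG proteins hold SCAP and its cargo back. SREBF2 encodes the precursor known mainly for sterol genes, and SREBF1 encodes those known mainly for fatty acid genes.

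The SREBP proteins bind sterol regulatory elements and also E-boxes, so the promoters of the regulators themselves were read first. Promoter windows of 300 bases, from 250 bases before the gene start to 50 after it, were taken from RefSeq (GRCh38.p14) and found for 27 of the 31 genes, as 37 windows. ACAT2, FDFT1, SQLE and FASN had none. The sterol element consensus TCACNCCAC, searched on both strands, was in 1 of the 37 windows (2.70%), that of SREBF2, at 133 to 125 bases before the start, against 1.04% of 14901 windows of detected protein-coding genes. The E-box CACGTG was in 5 windows, of SCAP, INSIG1, LSS and SC5D, whose 2 overlapping windows share 1 match, making 13.5% of windows against 9.39%. The stretches below show the SREBF2 element and the INSIG1 and SC5D E-boxes in capitals, on the coding strand, because these genes recur in the results. They are SREBF2 at chr22:41832942-41833010, INSIG1 at chr7:155297793-155297858 and SC5D at chr11:121292610-121292675, all on the plus strand of GRCh38.p14.
SREBF2: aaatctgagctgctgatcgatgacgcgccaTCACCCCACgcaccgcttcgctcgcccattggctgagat
INSIG1: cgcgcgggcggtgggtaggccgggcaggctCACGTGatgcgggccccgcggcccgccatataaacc
SC5D: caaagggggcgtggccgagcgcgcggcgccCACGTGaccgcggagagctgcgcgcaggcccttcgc

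Motifs of common promoter factors were more frequent, but they are shorter than the sterol element, which was in 1.13% of all windows. CCAAT, the letters bound by NF-Y, which acts beside SREBP at many sterol genes, was on either strand in 24 of the 37 windows (64.9%). That compares with 34.7% of windows of detected protein-coding genes and 34.6% of all windows. GGGCGG, bound by Sp1, was in 33 windows (89.2%), against 67.0% and 45.0%. The 37 windows are not separate genes. Those of ACLY overlap and hold the same CCAAT matches, as do those of SC5D. ACACA, which has no expression value, has several windows. The heat shock unit pair GAANNTTC, searched because the cells were heated, was in 0 of the 37 windows, against 4.66% of windows of detected protein-coding genes and 6.77% of all windows. At these shares few of 37 windows would be expected to match, so 0 does not set these promoters apart. Motif matches are letters in a window and were not tested as binding sites.

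All 30 matched genes were expressed. In both libraries each reached a TPM of 1 (a level scaled to transcript length and to a fixed total), as did 15188 of 57736 genes in the tables and 12367 of 19391 protein-coding genes. Together they held 0.183% ± 0.0026 of TPM (SD, n = 2), with 0.185% in replicate 1 and 0.181% in replicate 2. Sterol enzymes held 0.0772% ± 0.00032 and fatty acid enzymes, although only 6, held 0.0746% ± 0.0034. Smallest among all counts of the genes was that of STARD4 in replicate 1, 109.8, where counting error alone is 9.54%. The uncertainty of read sharing was small, with a posterior SD of at most 3.02% of the count in either library.

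**Figure D1:**
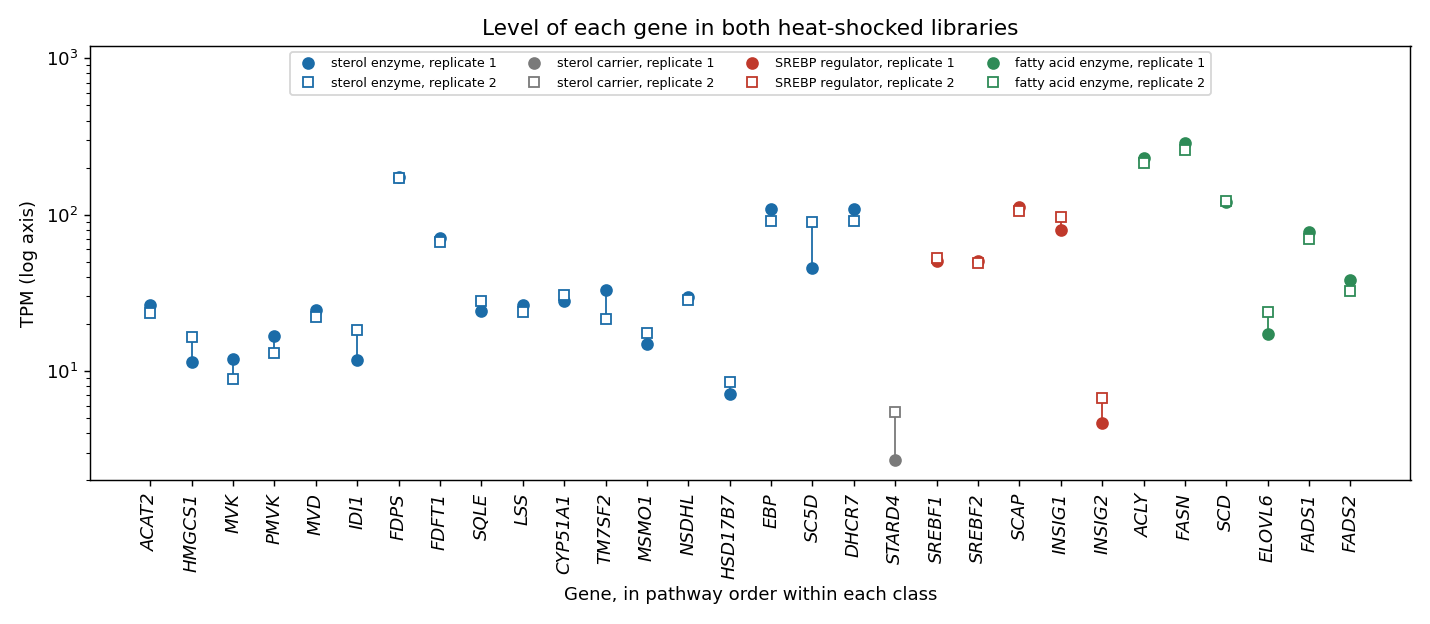
TPM of each matched gene (log axis) in replicate 1 (filled circles) and replicate 2 (open squares), in pathway order and coloured by class, with a line joining the 2 libraries. FASN, ACLY and FDPS stand highest, STARD4 and INSIG2 lowest, and the longest lines belong to STARD4 and SC5D.

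In the mevalonate part of the sterol pathway, a low run of enzymes ended in a high last step. FDPS, which makes farnesyl diphosphate for sterols and for protein prenylation, was at 173.7 TPM in replicate 1 and 170.5 in replicate 2, a mean of 172.1 ± 2.26 (SD, n = 2). On the TPM scale it was the highest sterol enzyme, at percentile 94.3 of detected protein-coding genes. Per base of the longest transcript, a scale chosen after the data were seen, EBP stood above it, at a mean of 147.4 against 141.4. The other 6 genes of this part lay far below, from 10.4 to 24.9 TPM on average. ACAT2, the thiolase that joins acetyl-CoA units, was at 26.4 and 23.5 TPM in replicates 1 and 2, and MVD, the decarboxylase, was at 24.6 and 22.1. HMGCS1, which makes HMG-CoA, was at 11.5 and 16.4 TPM, and IDI1, the isomerase, at 11.8 and 18.3. PMVK and MVK, the mevalonate kinases, were at 16.7 and 13.1 TPM and at 11.9 and 8.91. HMGCS1 and IDI1 were higher in replicate 2, and the other 4 of these 6 were lower there.

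From squalene onward most levels lay between those of FDPS and the other early enzymes. FDFT1, squalene synthase, was at 71.2 and 66.4 TPM in replicates 1 and 2. SQLE, the epoxidase that opens the way to sterols, was at 24.2 and 28.1 TPM, and LSS, which closes the rings to lanosterol, at 26.6 and 24.01. Of the enzymes that strip methyl groups from lanosterol, CYP51A1 was at 28.2 and 30.7 TPM, NSDHL at 29.8 and 28.5 and MSMO1 at 14.9 and 17.4. HSD17B7, the keto reductase of the same demethylation, was the lowest sterol enzyme, at 7.11 and 8.48 TPM.

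The last sterol enzymes were high. EBP, the isomerase, was at 108.9 and 90.7 TPM in replicates 1 and 2, and DHCR7, which makes cholesterol from 7-dehydrocholesterol, was at 108.5 and 91.3. SC5D, the desaturase that acts between EBP and DHCR7, was at 45.8 TPM in replicate 1 and 90.2 in replicate 2. In replicate 2 it was close to both and in replicate 1 well below them, with a TPM ratio of SC5D to EBP of 0.420 and 0.994. SC5D is ENSG00000109929, on the plus strand of chromosome 11 at 121163390 to 121184119 (GRCh37). The estimated transcript length of SC5D was 1281 bases in replicate 1 and 1150 in replicate 2, against 6854 for its longest annotated transcript, so the length behind its TPM is that of short isoforms. Counted per base of the longest transcript of every gene and scaled to the same total as TPM, a scale chosen after the data were seen, SC5D fell to a mean of 19.6, far below DHCR7 at 76.7 and EBP at 147.

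TM7SF2, one of the sterol C14 reductases, was at 33.1 TPM in replicate 1 and 21.6 in replicate 2. LBR, the nuclear envelope protein that carries the same activity, was at 175.6 and 210.2 TPM. The ranges of these 2 genes did not overlap, and they moved in opposite directions between the libraries. STARD4 (ENSG00000164211, chromosome 5, 110831731 to 110848288, minus strand), a soluble carrier of cholesterol between membranes, was the lowest gene of the whole set, at 2.71 and 5.49 TPM.

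Among the regulators, SCAP and INSIG1 had the highest TPM and INSIG2 by far the lowest, with the SREBP genes between. SCAP was at 112.2 and 105.6 TPM in replicates 1 and 2, and INSIG1, itself a target of SREBP, at 79.9 and 96.5. INSIG2, the paralogue of INSIG1, was at only 4.63 and 6.75 TPM. Replicate 1 thus had 17.2 times as much INSIG1 as INSIG2 TPM and replicate 2 had 14.3 times, and the libraries of these 2 genes were far from overlapping. SREBF1 was at 50.9 and 52.9 TPM and SREBF2 at 50.3 and 48.8, so their TPM did not overlap but differed by little.

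The near equality of the SREBP genes held only on the TPM scale. SREBF1 is ENSG00000072310, on the minus strand of chromosome 17 at 17713713 to 17740316 (GRCh37), and SREBF2 is ENSG00000198911, on the plus strand of chromosome 22 at 42229109 to 42303310. SREBF2 had 4587 and 4970 expected counts in replicates 1 and 2, and SREBF1 had 1095 and 1210. The estimated length of SREBF1 was 1228 and 1150 bases, against 4901 for its longest annotated transcript, while that of SREBF2 was 5044 and 4951 against 5699. On the TPM scale the SREBF2 to SREBF1 ratio was 0.956 ± 0.047 (SD, n = 2). Per base of the longest transcript, the scale chosen after the data were seen, it was 3.57 ± 0.050, so the order of these 2 genes turned with the scale. On that scale SREBF2, at a mean of 74.1, was level with SCAP at 79.5 and INSIG1 at 74.9, and the INSIG1 to INSIG2 ratio was 13.8 ± 1.77. SREBF1 also shares 556 exon bases with RAI1 on the opposite strand. The sources used here do not say whether counting used strand.

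Fatty acid enzymes were the highest class. FASN, the synthase that builds palmitate, was at 285.9 TPM in replicate 1 and 259.0 in replicate 2, the highest gene of the set and at percentile 96.9 of detected protein-coding genes. It is ENSG00000169710, on the minus strand of chromosome 17 at 80036214 to 80056170 (GRCh37). ACLY, which splits citrate to give cytosolic acetyl-CoA for both pathways, was at 231.8 and 214.5 TPM. SCD, the desaturase that makes oleate, was at 120.2 and 122.8 TPM. FASN, ACLY, FDPS and SCD followed each other in the order of levels with no overlap between neighbours. FASN had 20140 and 20171 expected counts, where counting error alone is under 1%, and SCD had 11645 and 13545. Per base of the longest transcript, the scale chosen after the data were seen, SCD and FASN were level, at means of 212 and 211, and the FASN to ACLY ratio was 1.04 rather than 1.22.

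The elongase and the front-end desaturases were lower. FADS1, the delta-5 desaturase of polyunsaturated fatty acids, was at 77.2 and 69.7 TPM in replicates 1 and 2. FADS2, the delta-6 desaturase, was at 38.2 and 32.7 TPM, with a FADS2 to FADS1 ratio of 0.494 and 0.470. These genes lie on opposite strands of chromosome 11 in GRCh37. FADS1, at 61567099 to 61596790, lies within the span of FADS2, at 61560452 to 61634826, and their exons share 490 bases. ELOVL6 (ENSG00000170522, chromosome 4, 110967002 to 111120355, minus strand), which extends palmitate, was the lowest of the class, at 17.2 TPM in replicate 1 and 23.7 in replicate 2.

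By class, the median level was 97.5 TPM for the 6 fatty acid enzymes, 51.9 for the 5 regulators and 25.7 for the 18 sterol enzymes, against 18.6 for detected protein-coding genes. The fatty acid median was 3.73 times the sterol median in replicate 1 and 4.05 times in replicate 2. Per base of the longest transcript these ratios were 4.01 and 4.25. Within the sterol enzymes, the 7 early genes had a median of 15.1 TPM and the 11 genes from squalene onward one of 29.1. The classes overlapped, since FDPS exceeded 4 of the 6 fatty acid enzymes and ELOVL6 lay below the sterol median. Members are not replicates of a condition, and no test was run between classes.

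**Figure D2:**
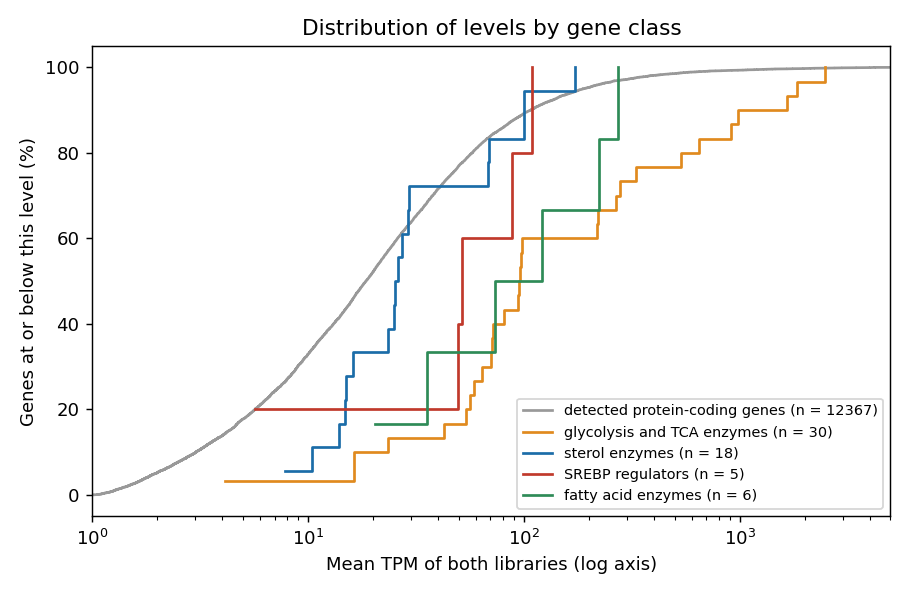
Share of genes (%) at or below each mean TPM (log axis) for sterol enzymes, SREBP regulators, fatty acid enzymes, glycolysis and TCA enzymes, and detected protein-coding genes. The sterol enzymes have a median of 25.7 TPM, and the fatty acid enzymes, at 97.5, lie near the glycolysis and TCA enzymes, at 95.7.

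In the order of mean TPM over all 30 genes, 19 of the 29 neighbouring pairs overlapped between their libraries and 10 did not. The 10 were at the top, where FASN, ACLY, FDPS and SCD were each clear of the next, in the upper middle, where INSIG1, SREBF1, SREBF2 and FADS2 were, and near the bottom, where MVK and HSD17B7 were. From CYP51A1 down to MVK, every neighbouring pair overlapped.

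Levels of other carbon pathways gave the scale. The 30 glycolysis and TCA enzymes held 1.15% ± 0.090 of TPM (SD, n = 2), with a median of 95.7 TPM, close to that of the 6 fatty acid enzymes. The highest of them, GAPDH, LDHA, ALDOA, PKM and MDH2, ranged upward from 861 TPM, above every gene of the set. Of 32 related lipid genes, 30 passed the same TPM limit, with a median of 18.3. The highest were TECR, a reductase of very-long-chain fatty acid elongation, at 274 and 233 TPM, LBR, HACD3, the dehydratase of the same cycle, at 129.6 and 140.2, NPC2, a lysosomal cholesterol carrier, at 134 and 127, and HSD17B12, the keto reductase of elongation, at 110 and 135. ABCA1, the cholesterol exporter, was at 0.50 and 0.71 TPM, and THRSP had 0 expected counts in both libraries.

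The label was checked against markers. Of 14 kidney epithelial genes, 4 reached a TPM of 1 in each library, led by KRT18 at 58.1 and 47.1 TPM, while CDH16, UMOD and AQP2 were among those with 0 counts. For a listed 0 the upper limit is 3 counts, which is 0.133 and 0.112 CPM in replicates 1 and 2, for counting error only. Of 7 matched neuronal genes, 5 passed. Hepatocyte genes, the markers of a tissue with high lipid synthesis, summed to 0.77 and 0.91 TPM with 0 of 7 passing. Of 6 adipocyte genes only LPL passed, at 3.19 and 4.26 TPM, and ADIPOQ had 0 counts.

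The libraries were then compared gene by gene, by an exact two-sided binomial test on the counts with Benjamini-Hochberg adjustment over the 19714 genes whose summed count reached 10. At a threshold of 0.05 it called 42.2% of those genes, 22.1% as higher in replicate 2 and 20.1% as higher in replicate 1. Of the 12367 detected protein-coding genes, 7024 were called, 3401 higher in replicate 2 and 3623 higher in replicate 1. Of the 30 genes of the set, 25 were called, 7 higher in replicate 2 and 18 higher in replicate 1. Their log2 ratios, replicate 2 over replicate 1, had a median of -0.18, against 0.02 over all genes tested. These are differences in scaled counts, not in TPM.

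STARD4 had the largest difference, with 109.8 counts in replicate 1 and 270.5 in replicate 2, a log2 ratio of 1.02 (exact binomial adjusted p = 6.3e-10). SC5D followed, with 1030 counts in replicate 1 and 2062 in replicate 2, a log2 ratio of 0.72 (exact binomial adjusted p = 2.6e-39). ELOVL6 had 899 and 1694 counts and a log2 ratio of 0.63 (exact binomial adjusted p = 5.2e-26). IDI1, INSIG2, HMGCS1 and INSIG1 were the others called higher in replicate 2, with log2 ratios of 0.51, 0.48, 0.33 and 0.22. Those called included 2 early sterol enzymes, a late one, the carrier, both INSIG genes and the elongase, so no class moved as a whole in this direction.

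TM7SF2 had the largest difference the other way, with 612 counts in replicate 1 and 487 in replicate 2, a log2 ratio of -0.61 (exact binomial adjusted p = 2.2e-11). PMVK, DHCR7, FADS2, MVK and EBP followed, with log2 ratios from -0.44 to -0.32. Of the 6 fatty acid enzymes, 5 were called higher in replicate 1, ELOVL6 being the exception. Among the 5, SCD had a log2 ratio of only -0.06 and was not called with scaling by library totals, where it was -0.04, and its TPM was slightly higher in replicate 2. Of the 18 sterol enzymes, 11 were called higher in replicate 1 and 3 higher in replicate 2. SQLE, CYP51A1, MSMO1, HSD17B7 and SREBF1 were not called. Of the 31 related lipid genes tested, 8 were called higher in replicate 2 and 9 higher in replicate 1, and of the 30 glycolysis and TCA enzymes 3 and 24 were.

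The differences followed the GC content of the transcripts. All 7 genes called higher in replicate 2 were among the 14 with a GC content under 50%, and 15 of the 18 called higher in replicate 1 were among the 16 at or above it. Across the 30 genes the log2 ratio and GC content had a Pearson's r of -0.80, and across the 13496 genes whose summed count reached 100 one of -0.64. These coefficients are across genes of the same 2 libraries and describe them only. The trend was thus not particular to the set, and calls split by GC content are not given here over all genes. STARD4 had 38.3% GC, SC5D 37.1% and ELOVL6 42.1%, whereas TM7SF2 had 62.96%.

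**Figure D3:**
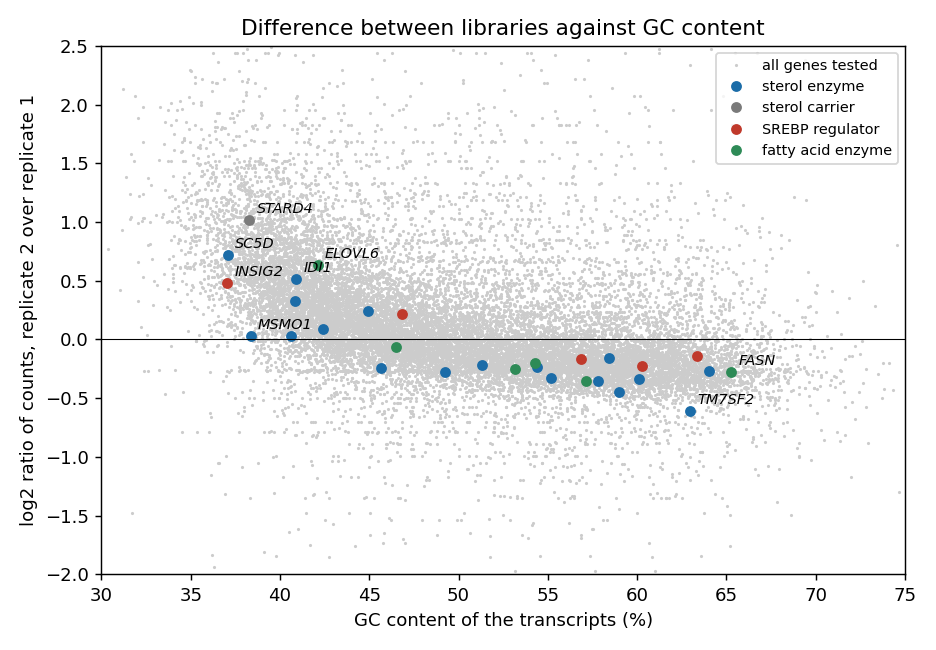
Log2 ratio of scaled counts, replicate 2 over replicate 1, against the GC content of the transcripts (%), for all genes tested (grey; 238 lie outside the axes) and for the genes of the set by class. STARD4, SC5D, INSIG2, ELOVL6 and IDI1 lie at low GC content and above 0, and TM7SF2 and FASN at high GC content and below it.

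With the GC trend of all genes removed, 13 of the 30 genes were called, against 26.9% of 18954 genes with a GC value. ELOVL6 and INSIG1 were the 2 higher in replicate 2, against 13.5% of genes, with log2 ratios of 0.35 and 0.19. The other 11 were higher in replicate 1, against 13.4% of genes. Of the 12367 detected protein-coding genes, 4280 were called, 1972 higher in replicate 2 and 2308 higher in replicate 1. SC5D then had a log2 ratio of -0.06 and STARD4 one of 0.36, and neither was called (exact binomial adjusted p = 0.49 and 0.087). MSMO1 and CYP51A1, which were not called before, had log2 ratios of -0.62 and -0.38, with MSMO1 the lowest of the set (exact binomial adjusted p = 8e-11). TM7SF2 had a log2 ratio of -0.36, and INSIG1 moved only from 0.22 to 0.19.

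**Figure D4:**
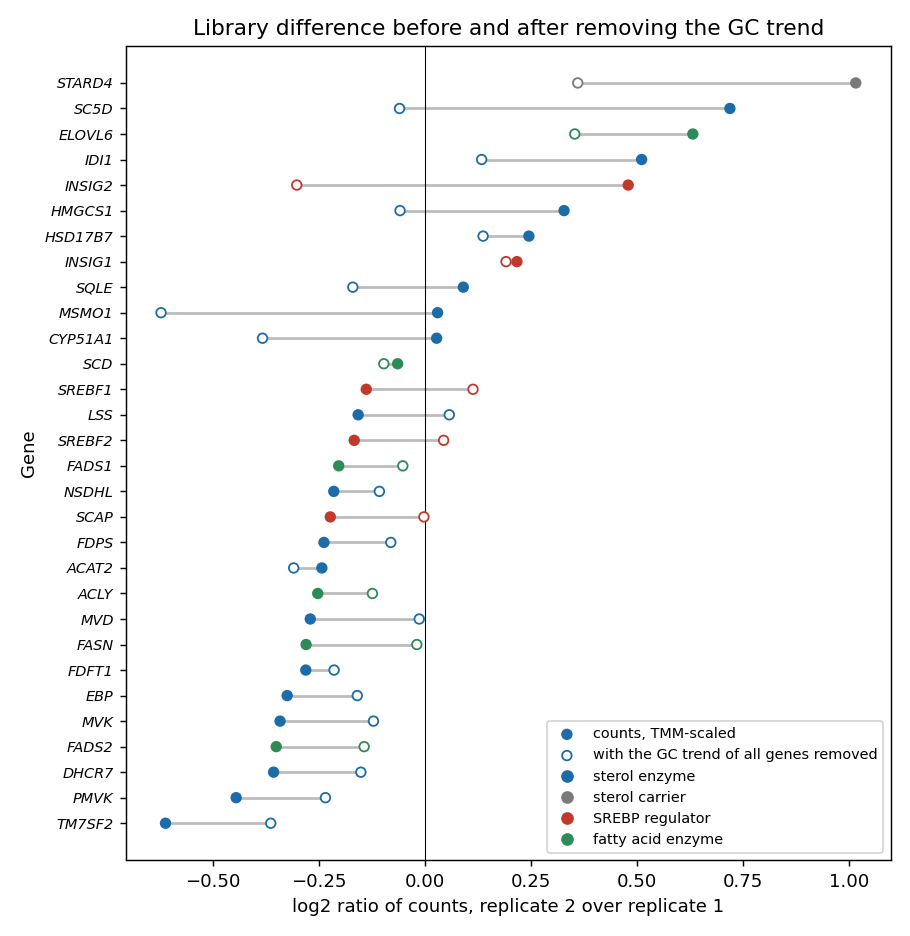
Log2 ratio of scaled counts, replicate 2 over replicate 1, for each gene of the set (filled points) and the same with the GC trend of all genes removed (open points), coloured by class. SC5D moves from 0.72 to -0.06 and MSMO1 from 0.03 to -0.62, while INSIG1 stays near 0.2.

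Counting noise is the only error in the tests above. With replicate variation assumed as a coefficient of variation of 0.1 in the edgeR exact test, 3 genes of the set were called, STARD4, SC5D and ELOVL6, all higher in replicate 2. Over all genes that test called 7.69%, and 7.18% as higher in replicate 2. ELOVL6 was thus the gene of the set called higher in replicate 2 under each of these 3 tests. None of the 3 both removed the GC trend and allowed for replicate variation.

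Overlapping genes limit single values. Of the 30 genes, 14 share exon bases with a gene of the tables on the opposite strand and 3 with one on the same strand. HMGCS1 shares 2497 bases with ENSG00000261604, a lncRNA at 3.53 and 5.88 TPM in replicates 1 and 2. ACAT2 shares 454 bases with TCP1, a chaperonin subunit at 358 and 400 TPM. CYP51A1 shares 108 bases with AKAP9, which was at 5.77 and 27.2 TPM. Without strand, reads that lie wholly in these shared bases fit both genes, and the expected counts divide them by estimate. Their part in the values was not tested.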

How the data were processed

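Poly(A)+ RNA of 2 HEK293T libraries was sequenced with 50 bp reads, per the labels. The submitters' processing notes name Trimmomatic 0.36, STAR 2.6.1c and RSEM 1.3.1 with GRCh37.p13/hg19, whereas the methods name featureCounts. The expected counts deposited by the authors are RSEM estimates that share multi-mapped reads. The authors also deposited TPM and FPKM, which RSEM scales to estimated transcript length. A table of the whole series was not used.

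Names came from GENCODE release 44 lifted to GRCh37, with symbols for 96.1% of 57736 identifiers and a GC value for 95.5%. Expected counts were rounded and tested per gene by an exact two-sided binomial test conditional on the summed count, with library shares from edgeR 4.0.16 TMM. Log2 ratios used a pseudocount of 0.5. The GC trend was the median ratio in 50 GC classes of genes whose summed count reached 100, interpolated. The test was checked on simulated data. Alternatives were library totals, DESeq2 1.42.0 size factors, no count minimum, removal of the GC trend, an edgeR exact test with an assumed variation, other units and filters, and each library alone. Counts per base of the longest annotated transcript were added after the data were seen. All 31 listed genes were to be named, with related lists given by counts, their highest genes and those under 1 TPM. Exon overlaps and promoter motifs were described after values were seen, and the genes and lists were chosen with earlier results of these data known. A longer form of the sterol element, which contains the letters of the consensus and so could match only where it does, was also searched. Among the windows of the set it matched at the SREBF2 site. Intervals and floors cover counting error only.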

Additional observations from a re-analysis of the deposited data

How the results depend on the processing

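No paired analysis was possible because only 1 group is analysed here. All 30 genes were also above 0.1 TPM and above 1 FPKM in both libraries, and 28 were above 5 TPM. The sterol, fatty acid and regulator medians were 35.5, 134.6 and 71.7 with TPM rescaled to protein-coding genes, 20.3, 77.1 and 41.0 in FPKM, and 30.3, 126.0 and 74.1 per base of the longest transcript, a scale chosen after the data were seen. The regulator median was 53.5 in posterior mean TPM. Leaving out each replicate gave a sterol median from 23.7 to 26.5. The share of the set was 0.334% of expected counts and 0.252% of protein-coding TPM. Not scaled to length, the ratio of SREBF2 to SREBF1 was 4.15, of INSIG1 to INSIG2 11.2 and of FADS2 to FADS1 0.715; per base of the longest transcript the first and last were 3.57 and 0.615.

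Between the libraries, 13 genes were called with the GC trend removed and 3 by the edgeR exact test at an assumed coefficient of variation of 0.1, against 25. Scaling by library totals gave 24 and DESeq2 size factors 26. With the GC trend removed, the log2 ratio changed sign for HMGCS1 (-0.058), SQLE (-0.17), LSS (0.058), CYP51A1 (-0.38), MSMO1 (-0.62), SC5D (-0.059), SREBF1 (0.11), SREBF2 (0.045) and INSIG2 (-0.30). The cause was not tested. Calls were lost for 15 genes and gained for 3 with the GC trend removed, and lost for 22 in the edgeR exact test. SCD lost its call under library totals, and SREBF1 gained one under DESeq2 size factors. Depth limits STARD4 and HSD17B7 most.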
